A study of Mus musculus with 18 samples.

Results

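Erythroid genes were examined for contacts that fragments on other chromosomes made with the globin genes. The set held 29 listed genes of the red cell programme, and each was represented by every DpnII fragment that overlapped its annotated mm9 gene body or the 10 kb on either side. Of these, 28 had an annotated window, among 22208 windows of protein-coding genes in all, and Ahsp was not analysed here. Only genes on another chromosome than the viewpoint were used, which left 26 genes for Hba, 27 for Hbb and 27 for the control viewpoint, the Foxa2 promoter. Bcl11a and Slc4a1 share chromosome 11 with Hba and were measured only from Hbb, whereas Uros shares chromosome 7 with Hbb and was measured only from Hba.

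Red cell precursors make haemoglobin from alpha-globin and beta-globin chains and from heme, and the globin clusters lie on different chromosomes. Erythroid transcription factors such as Klf1, Tal1 and Gfi1b act on the globin genes and on many genes for heme synthesis, iron uptake and the red cell membrane. Microscopy and chromosome conformation studies have described active globin genes lying near other active erythroid genes in the nuclei of erythroid cells. NG Capture-C ligates DNA fragments that lie close together in fixed nuclei and then enriches for ligation products of chosen viewpoints. A read on another chromosome (a trans read) is thus a sequenced ligation product with the viewpoint, and reads on 1 fragment need not be separate contacts.

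The series compared mouse embryonic stem cells (ESC) and definitive endoderm (DE), both of the 129/Sv//EV line and labelled day 0 and day 5, with erythrocytes (PHS in the labels) from spleens of C57BL/6 mice given phenylhydrazine, labelled day 5. DE was grown from ESC through embryoid bodies with Activin A and EGF, and spleens were dissociated and filtered with no sort stated, so spleen cells of other types may be present. The 18 samples were 9 libraries, 3 replicates per cell type, each captured once for promoters and once for enhancers. Cell type and strain cannot be told apart in these groups, and the labels do not say that replicates came from separate cultures or animals, so p-values measure only the spread between these samples.

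Depth and the share of trans reads differed between viewpoints and libraries. A library held 26657 to 192111 reads at Hba, 521 to 26400 at Hbb and 5005 to 46790 at Foxa2. Trans reads made up 26.3 to 36.6% of a column in ESC and 34.0 to 39.7% in DE. In erythrocytes they made up 55.3 to 78.4% in replicates 1 and 3 but 20.6 to 30.2% in replicate 2, which stood apart. The labels were checked against Nprl3, which holds the alpha-globin enhancers: it took 13.7 to 19.8% of the cis reads of Hba in erythrocytes, 6.79 to 7.39% in ESC and 5.64 to 6.29% in DE. The globin columns of the enhancer capture had the same blank zones around the viewpoints as those of the promoter capture, and therefore both captures were treated as repeated captures of the same globin sites, summed per library. At Hba, 48.3 to 58.9% of trans fragments carried exactly 2 reads, against 0.641 to 7.77% at Hbb, and so 95% Poisson intervals were taken over distinct fragments. These intervals cover counting error only. Replicates of a capture shared 0.357 to 1.99% of their Hba trans fragments, and both captures of the same library shared 0.289 to 1.23%, no more than captures of different libraries (0.190 to 1.38%).

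In erythrocytes the erythroid genes held about 3 times the trans reads expected from the genome-wide level of the same library, and they lay above ESC and DE in every library when the globin columns were summed. The measure was the ratio of reads in the member windows to the reads that the mean trans level per kb of each column gives for windows of that size. In erythrocyte replicate 1, 271 reads stood against 88.5 expected, a ratio of 3.06 (95% interval over fragments 2.67 to 3.59). Replicate 2 held 87 reads against 10.3 expected, a ratio of 8.45 (6.38 to 10.9), and replicate 3 held 96 against 35.1, a ratio of 2.73 (2.19 to 3.59). All 3 libraries lay above 1, and replicate 2, the library with few trans reads, lay far above the other 2. The mean was 4.75 ± 3.21 (SD, n = 3) and it was 2.90 without replicate 2.

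In ESC the same windows gave ratios of 2.12, 1.55 and 2.06, a mean of 1.91 ± 0.312 (SD, n = 3). In DE they gave 1.51, 1.29 and 1.72, a mean of 1.51 ± 0.214 (SD, n = 3). The ratio of the erythroid genes was therefore above 1 in every library, although the interval of DE replicate 2 (0.998 to 1.66) included 1. The lowest erythrocyte library, at 2.73, exceeded the highest ESC library, at 2.12, and the highest DE library, at 1.72. The ratio of means was 2.49-fold over ESC and 3.15-fold over DE, with no overlap between library ratios, while DE and ESC overlapped. The 95% intervals over fragments did overlap between erythrocytes and ESC. ESC replicates 1 to 3 gave 1.25 to 2.95, 1.04 to 2.33 and 1.29 to 3.06, against 2.67 to 3.59 and 2.19 to 3.59 in erythrocyte replicates 1 and 3. The DE intervals reached at most 2.12. On the log2 scale these ratios were 1.31 and 1.66, and 0.60 and 0.94 without erythrocyte replicate 2. Since the genes were chosen with earlier results known, no p was computed for this pooled value.

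**Figure D1:**
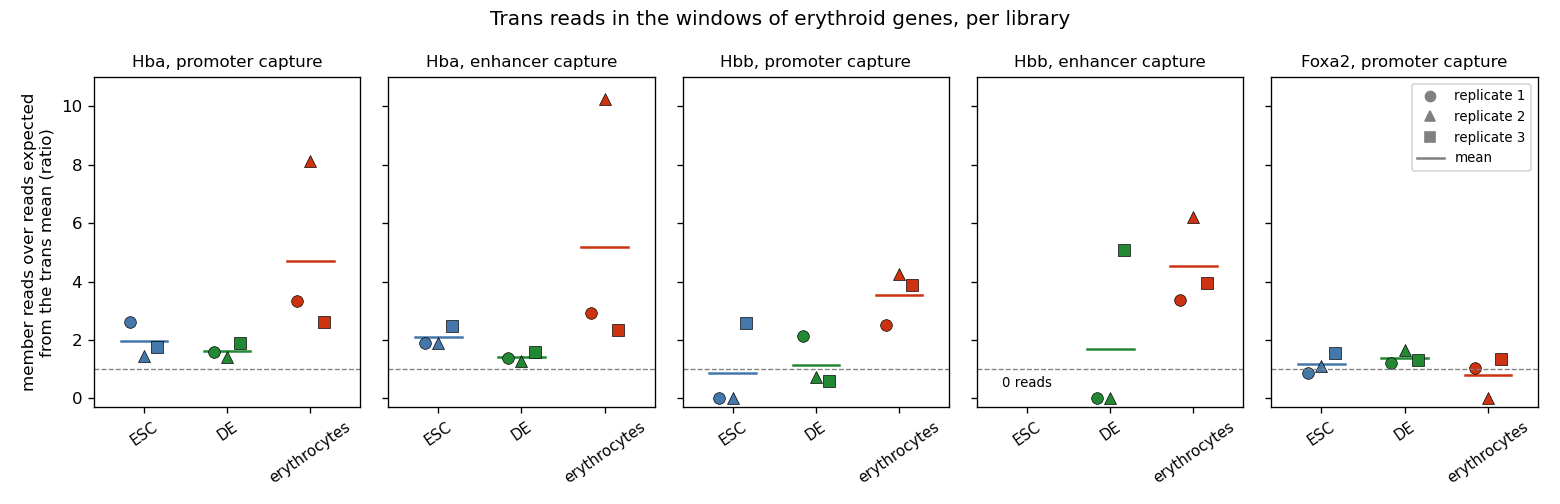
Ratio of trans reads in the erythroid gene windows to reads expected from the mean trans level, for each library (points) with the mean of 3 libraries (line), in 5 capture columns. Erythrocytes reach 8.13 and 10.3 at Hba in replicate 2, whereas at Foxa2 their ratios are 1.04, 0 and 1.34, and the dashed line marks a ratio of 1.

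Single columns overlapped more than their sum, which rested mostly on Hba. Over the erythrocyte libraries the Hba promoter and enhancer captures held 190 and 185 member reads, and the Hbb captures 52 and 27. In the same order, ESC held 60, 52, 3 and 0 and DE held 137, 114, 16 and 4, so the mix of viewpoints differed between cell types. In the promoter capture of Hba, the alpha-globin viewpoint, the ratios were 3.35, 8.13 and 2.62 in erythrocytes, 2.62, 1.45 and 1.77 in ESC and 1.58, 1.40 and 1.89 in DE. In the enhancer capture of Hba they were 2.92, 10.3 and 2.33 in erythrocytes, 1.90, 1.91 and 2.47 in ESC and 1.40, 1.28 and 1.60 in DE. At Hba, erythrocytes thus lay above DE without overlap in both captures, but their lowest library did not exceed the highest ESC library in either. DE also lay below ESC without overlap in the enhancer capture of Hba, whereas DE and ESC overlapped in its promoter capture. At Hbb, the beta-globin viewpoint, the promoter capture gave 2.53, 4.24 and 3.90 in erythrocytes, 0, 0 and 2.57 in ESC and 2.14, 0.733 and 0.591 in DE. The ESC values rested on 0, 0 and 3 reads, and the enhancer capture of Hbb held 0 member reads in ESC, where 0.119, 0.172 and 0.0965 were expected, so a difference from ESC at Hbb was not detectable at this depth. The Hbb enhancer capture gave 3.37, 6.22 and 3.96 in erythrocytes and 0, 0 and 5.09 in DE, the last from 4 reads.

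The Foxa2 promoter, which lies in a gene for an endoderm transcription factor, served as a control viewpoint in the same libraries. Summed over erythrocytes, the erythroid genes held 12 Foxa2 reads against 11.3 expected, a ratio of 1.06. The 3 erythrocyte libraries gave 1.04, 0 and 1.34, all below the ratios of the globin columns in the same cells. ESC gave 0.868, 1.10 and 1.54, and DE gave 1.20, 1.66 and 1.33. Replicate 2 of erythrocytes held 0 reads with 0.640 expected, so its Foxa2 value carries little weight. Replicate 3 held 4 reads on 2 fragments, and its 95% interval over fragments, 0.0938 to 2.80, included its Hba ratios of 2.62 and 2.33. Replicate 1 held 8 reads on 6 fragments, with an interval of 0.332 to 1.97.

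The size of the difference between cell types depended on what it was measured against. Against the 200 kb on either side of each gene, the ratios were 2.29, 3.06 and 2.10 in erythrocytes, 1.42, 0.988 and 1.27 in ESC and 1.05, 1.01 and 1.33 in DE, and replicate 2 no longer stood far from the others. Against all gene windows, they were 2.84, 6.47 and 2.66 in erythrocytes, 1.86, 1.37 and 1.81 in ESC and 1.35, 1.15 and 1.55 in DE. Gene windows as a whole stood at 1.08, 1.31 and 1.03 times the trans mean in erythrocytes and at 1.14 in each ESC library. As reads above the trans mean per 100000 cis interactions, the erythroid genes held 303, 166 and 279 in erythrocytes, 23.4, 13.1 and 31.5 in ESC and 15.2, 8.46 and 23.6 in DE. On that scale replicate 2 was the lowest erythrocyte library, whereas as a ratio it was the highest. The library values of erythrocytes did not overlap those of ESC or DE on any of these scales.

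In erythrocytes the excess was highest in the gene bodies and declined with distance. The gene bodies gave ratios of 3.49, 10.5 and 3.17 in replicates 1, 2 and 3, and the 10 kb beside them gave 2.40, 5.30 and 2.09. Between 10 and 50 kb the ratios were 1.40, 3.53 and 1.58, and between 100 and 200 kb they were 1.31, 2.45 and 1.28. At 500 to 1000 kb they were 1.19, 1.44 and 1.11. The decline was thus seen in each erythrocyte library, with most of it within 50 kb of the genes, but it was not steady farther out. Replicate 3 gave 1.17 between 50 and 100 kb and replicate 2 gave 1.36 between 200 and 500 kb, each below its next bin. A level slightly above the trans mean remained at 500 to 1000 kb. ESC gave 1.94, 1.89 and 1.48 in gene bodies and 2.51, 1.05 and 3.11 in the 10 kb beside them, with no peak in the gene bodies, and means of 1.44 to 1.63 between 10 and 200 kb. DE means ran from 1.57 in gene bodies to 1.30 between 100 and 200 kb. At Foxa2, erythrocytes gave 1.34, 4.31 and 1.15 between 10 and 50 kb, 24 reads against 16.5 expected, a level near that of the globin columns there.

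**Figure D2:**
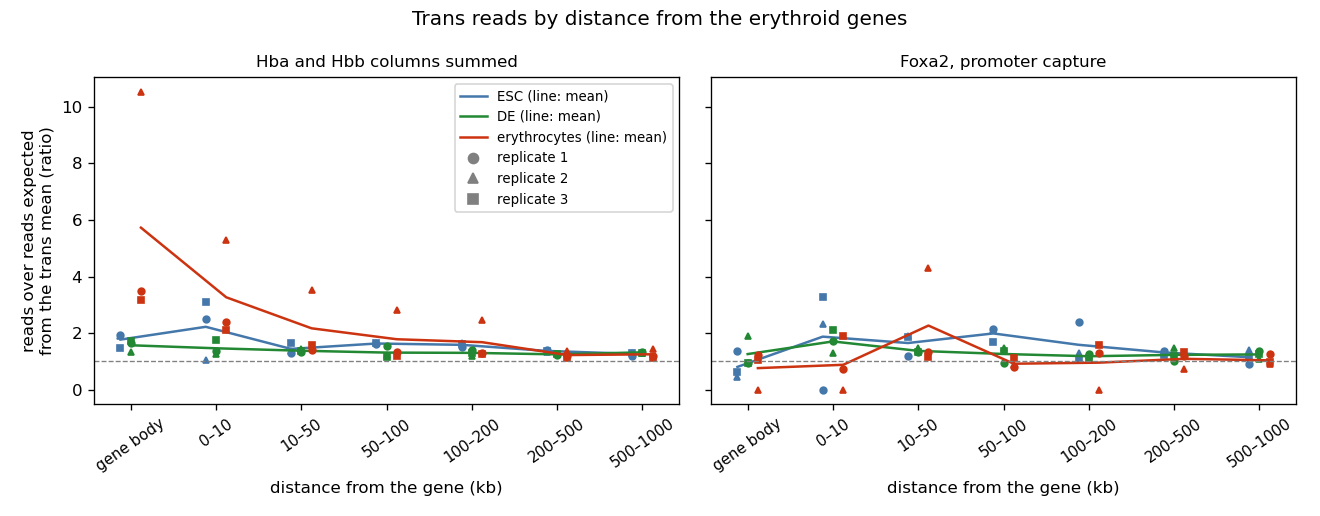
Ratio of reads to reads expected from the trans mean by distance from the erythroid genes (kb), for the globin columns summed (left) and the Foxa2 promoter (right); points are libraries and lines join the means of 3 libraries. Erythrocytes fall from 3.49, 10.5 and 3.17 in gene bodies to 1.19, 1.44 and 1.11 at 500 to 1000 kb, whereas at Foxa2 the erythrocyte gene bodies give 1.23, 0 and 1.05 and the bin of 10 to 50 kb gives 1.34, 4.31 and 1.15.

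Single genes held few reads. Over the 3 erythrocyte libraries and all globin columns a gene held 2 to 92 reads, with a median of 11.5. Reads need not be separate contacts: the 454 member reads in erythrocytes lay on 305 fragments, counted per column and library. Of 28 genes, 27 had an erythrocyte ratio above 1 and 22 above 2, whereas 10 were above 2 in ESC and 4 in DE. Among the 25 genes in trans to both globin clusters, 21 were above 2 in erythrocytes (84.0%), against 16.6% of all 18495 such gene windows. In ESC 10 of the 25 were above 2 (40.0%, against 23.0% of all windows) and in DE 4 were (16.0%, against 15.3%). The median ratio of the 25 genes was 2.99 in erythrocytes, 1.84 in ESC and 1.27 in DE, where all windows gave 1.02, 1.00 and 1.10. In 18 of the 25 genes the erythrocyte ratio exceeded both others (72.0%, against 32.4% of all windows). Other lists, described below and here with captured genes included, were also high in erythrocytes. Above 2 were 8 of 14 widely expressed genes (57.1%) and 18 of 33 further erythroid genes (54.5%). Pluripotency and endoderm genes gave 20.0% and 23.1%. The erythrocyte ratio exceeded both others in 35.7% of the widely expressed and 66.7% of the further erythroid genes.

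**Figure D3:**
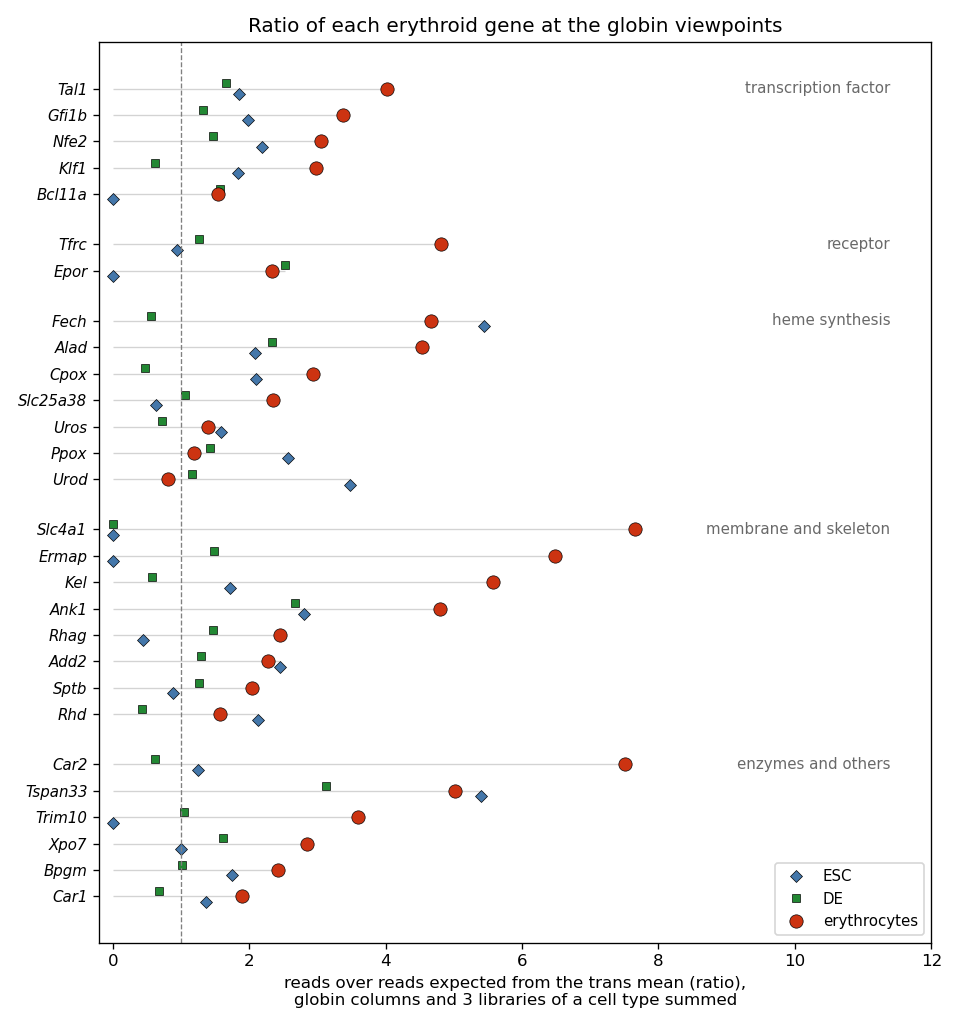
Ratio of reads to reads expected from the trans mean for each of the 28 erythroid genes, grouped by role, with globin columns and 3 libraries of a cell type summed. Erythrocytes (circles) reach 7.66 at Slc4a1 and 7.51 at Car2, and fall below 1 at Urod (0.81).

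The erythroid transcription factors bind and regulate globin and other red cell genes, and they numbered 5. In erythrocytes they held 44 reads, and the libraries gave 2.59, 7.47 and 3.29. Klf1, which activates adult beta-globin, held 3, 2 and 2 reads in replicates 1 to 3 of erythrocytes, 0, 0 and 2 in ESC and 0, 0 and 2 in DE. Its ratio was 2.99 in erythrocytes, 1.84 in ESC and 0.62 in DE, on so few reads that the libraries overlapped. Bcl11a, a repressor of fetal-type globin genes, was measured only from Hbb and held 3, 0 and 0 reads in erythrocytes, a ratio of 1.54.

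The receptor group held the erythropoietin receptor, Epor, and the transferrin receptor, Tfrc, which brings iron into the cell. Tfrc held 17, 2 and 3 reads in erythrocytes, 2, 0 and 0 in ESC and 2, 6 and 0 in DE. Its ratio was 4.82 in erythrocytes, 0.94 in ESC and 1.26 in DE. The highest DE library, at 2.33, lay below the lowest erythrocyte library, at 2.50, but 1 ESC library, at 3.16 on 2 reads, lay above it.

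The heme synthesis genes numbered 7 and had the lowest pooled ratio of the role groups in erythrocytes, 2.79. They held 65 reads, with library ratios of 3.06, 2.79 and 2.12, while ESC libraries gave 4.25, 1.52 and 2.88 and overlapped them. Only 3 of the 7 genes had a higher ratio in erythrocytes than in ESC. The group held 3 of the 4 lowest genes: Uros, which makes uroporphyrinogen III, with 3, 1 and 1 reads and a ratio of 1.40, Ppox, which acts late in the pathway, with 3, 0 and 0 reads and 1.19, and Urod, which removes carboxyl groups from uroporphyrinogen, with 1, 0 and 1 reads and 0.81. Urod stood at 3.48 in ESC, on 4 reads.

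The membrane and membrane skeleton genes numbered 8 and held 204 reads in erythrocytes, with library ratios of 2.96, 10.1 and 3.03. At Foxa2 these windows held 10 erythrocyte reads against 4.81 expected, a ratio of 2.08, the only role group above its expected count there apart from the transcription factors, with 2 reads against 1.59. Slc4a1, the anion exchanger band 3, was measured only from Hbb and had the highest ratio of all members, 7.66, on 2, 1 and 2 reads. It held 0 reads in ESC and in DE, and 2 of the members' 12 Foxa2 reads in erythrocytes, so its reads were not confined to Hbb. All 27 member windows together expected only 3.50 and 0.387 Hbb reads in ESC, in the promoter and enhancer captures. In DE they expected 13.5 and 2.40, so 0 reads in 1 window carry little weight. Ermap, a blood group antigen of the red cell surface, held 14, 4 and 4 reads in erythrocytes, 0 in each ESC library and 5, 2 and 0 in DE, a ratio of 6.48 in erythrocytes and 1.49 in DE.

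Ermap and Slc4a1 were the 2 of 28 genes in which every erythrocyte library exceeded every ESC and DE library. Among the 25 genes in trans to both clusters this was Ermap alone, against 1.21% of all such windows. Kel, the Kell blood group glycoprotein, held 11, 6 and 4 reads in erythrocytes, 0, 0 and 3 in ESC and 1, 1 and 1 in DE, and its ratio was 5.57. Its lowest erythrocyte library, at 4.04, lay above DE but below the single ESC library with reads, at 6.04. Ank1, erythroid ankyrin, which ties band 3 to the spectrin skeleton, had the longest gene body and the most reads: 50, 24 and 18 in erythrocytes, 11, 10 and 4 in ESC and 21, 24 and 26 in DE. Its ratio was 4.80 in erythrocytes, 2.81 in ESC and 2.67 in DE, and its libraries overlapped. Ank1 did not carry the pooled value, which was 2.91, 7.15 and 2.59 in erythrocytes without it and 2.61, 7.10 and 2.61 without the 6 highest genes.

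The remaining 6 genes, enzymes and others, held 113 reads in erythrocytes with library ratios of 3.15, 10.7 and 2.52. Car2, a carbonic anhydrase, held 18, 5 and 3 reads in erythrocytes, 0, 0 and 2 in ESC and 1, 0 and 2 in DE. Its ratio was 7.51 in erythrocytes, 1.24 in ESC and 0.62 in DE, but the ESC library with 2 reads, at 4.39, exceeded the lowest erythrocyte library, at 3.30. Tspan33, a tetraspanin of red cell precursors, held 13, 7 and 2 reads in erythrocytes, 3, 3 and 5 in ESC and 12, 3 and 4 in DE. With ratios of 5.02 in erythrocytes, 5.41 in ESC and 3.13 in DE, it was high in cells of every type.

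When every gene window was tested, no member passed the threshold. The fit used limma on log2 of reads per 100000 trans reads plus 10, for windows with at least 10 reads over the libraries compared, with Benjamini-Hochberg adjustment over all windows. With the globin columns summed, erythrocytes against ESC gave 0 of 19 members tested, against 1 of 7143 windows (0.0140%). Erythrocytes against DE gave 0 of 21 members, against 7 of 11006 windows (0.0636%). At an unadjusted p under 0.05, 6 of the 19 members were higher in erythrocytes than in ESC and 6 of the 21 higher than in DE, against 4.17% and 3.35% of all windows. The minimum count ran over both groups, so Ermap and Trim10, with 0 ESC reads, were tested against ESC through erythrocyte reads alone. These shares are therefore not read as a result about the members. edgeR and DESeq2 called 0 of the 19, and DE against ESC called 0 of 8924 windows, 11 members among them.

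The direction was shared more widely than the calls. The members' median log2 difference was 0.53 for erythrocytes against ESC and 0.56 against DE, where all windows gave 0.01 and -0.04. Of the members tested, 17 of 19 were higher in erythrocytes than in ESC and 21 of 21 higher than in DE, against 50.5% and 44.6% of all windows. These 2 comparisons share the erythrocyte libraries, and a minimum count over both groups favours windows that are high in one of them. Without a minimum, 21 of 25 members were higher than in ESC and 23 of 25 higher than in DE, against 52.9% and 44.7% of all windows.

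Among single members, limma gave Ank1 a log2 difference of 0.94 (SE 0.30, adjusted p = 0.466) between erythrocytes and DE and 0.97 (SE 0.39, adjusted p = 0.781) between erythrocytes and ESC. Ank1 passed against DE only when erythrocyte replicate 3 was left out (log2 difference 1.27, adjusted p = 0.0257), a fit that called 32 of 10126 windows. Without erythrocyte replicate 2 the Ank1 difference was 0.32 from DE and 0.36 from ESC. Kel differed by 1.10 and Car2 by 1.08 from DE, with limma adjusted p of 0.503 and 0.554. Ermap differed by 1.15 from ESC and 0.90 from DE, with limma adjusted p of 0.781 and 0.716. Tfrc differed by 0.67 from DE and 0.70 from ESC and Tspan33 by 0.56 and 0.17. Klf1 and Slc4a1 were below the minimum count. In simulated data of this depth, the fit of erythrocytes against DE found 28% of windows changed 4-fold and 87% of those changed 8-fold. The simulation assumed 1 spread for all libraries and left out paired Hba reads and the deviation of erythrocyte replicate 2. These shares therefore do not give the power of the fit on the real data.

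In single columns 0 members passed either. The Hba promoter capture tested 12 members in erythrocytes against DE (2 of 5207 windows called, 0.0384%) and 8 against ESC (0 of 2742). The Hba enhancer capture tested 11 against DE (2 of 5187, 0.0386%) and 9 against ESC (1 of 2543, 0.0393%). In the Hbb promoter capture 1 member, Ank1, reached the minimum count against DE, where 0 of 325 windows were called. For DE against ESC, 0 of 4 and 0 of 5 members passed in the Hba captures, and in the Hbb promoter capture, where 5 of 101 windows were called (4.95%), 0 members reached the minimum count.

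Within erythrocytes, the Hba promoter was set against the Foxa2 promoter, pairing the columns of each library. Of 1503 windows, 2 were called (0.133%), and 0 of 6 members were. Tspan33 differed by 1.28 with a limma adjusted p of 0.273, and it passed only without erythrocyte replicate 3 (1.53, adjusted p = 0.0214), a fit that called 110 of 926 windows. At Hbb, 2 of 283 windows were called (0.707%), and the 1 member tested, Ank1, was not. In simulated data, with the same limits, the Hba fit found 1% of windows changed 4-fold and 23% of those changed 8-fold, and the Hbb fit 8.57% and 62.9%.

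Other gene lists give a scale for the members, and their genes too were chosen with earlier results known. A further 35 erythroid genes gave ratios of 2.30, 6.04 and 1.93 in erythrocytes, and 2.25, 6.03 and 1.89 without Slc25a37, which was itself a captured viewpoint. Widely expressed genes gave 1.51, 3.12 and 1.98 in erythrocytes, 1.02, 1.14 and 2.30 in ESC and 1.41, 1.53 and 1.37 in DE. Pluripotency genes, which are active in ESC, gave 1.15, 1.16 and 1.36 in erythrocytes and 2.24, 1.75 and 1.58 in ESC. Endoderm genes, without those captured as viewpoints, gave 1.33, 0.273 and 0.959 in erythrocytes. In each erythrocyte library the members lay above the further erythroid genes and these above the pluripotency and endoderm genes, while the widely expressed genes in replicate 3 lay above the further erythroid genes.

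**Figure D4:**
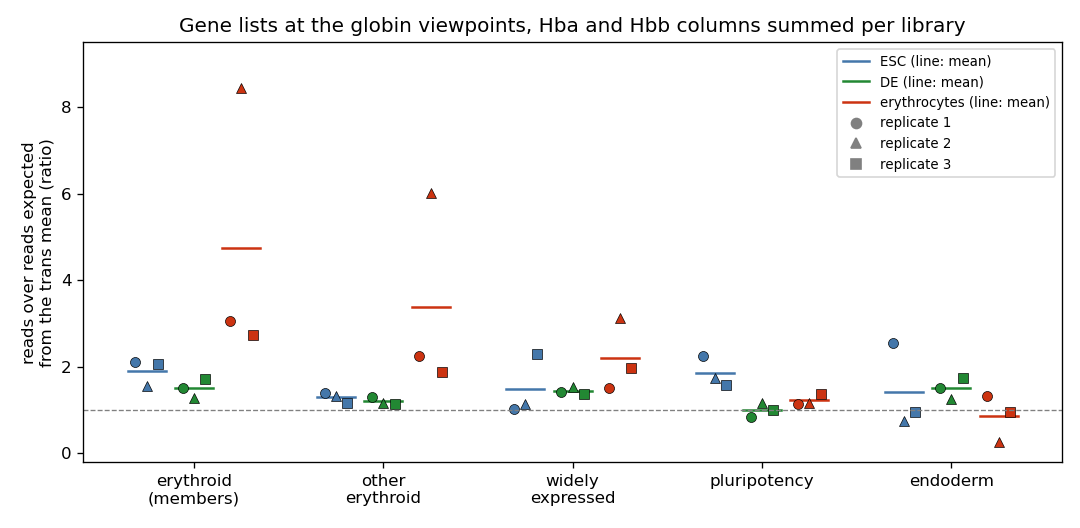
Ratio of reads to reads expected from the trans mean for 5 gene lists, globin columns summed per library (points) with the mean of 3 libraries (lines), lists shown without genes that were captured viewpoints. The members give 3.06, 8.45 and 2.73 in erythrocytes, whereas the pluripotency genes give 1.15, 1.16 and 1.36.

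Few contacts fell on the same fragment in different libraries. Of 3207 fragments in the windows of the 25 genes, 12 (0.374%) held reads in 2 or more erythrocyte libraries, against 0.0338% of the fragments in all gene windows. Fragments with any erythrocyte read made up 8.64% of the members' fragments and 2.84% of those in all gene windows, so more repeats go with more reads. In DE the repeated share was 0.218% against 0.0819%, and in ESC it was 0 against 0.0108%. The repeated fragments lay in Car1, Ermap, Ank1, Epor, Xpo7, Nfe2, Cpox and Fech, genes named here after their values were seen, and neighbouring fragments may come from 1 ligation junction. A fragment 3.6 kb upstream of Car1, a carbonic anhydrase gene beside Car2, held 1 read in each of the 3 erythrocyte libraries and 1 in DE. In Ermap 2 adjoining fragments of 2102 and 185 bases near the gene start held 3, 2 and 0 and 4, 2 and 0 reads.

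Sequences of 2 of these fragments, in Ank1 and in Epor, are shown as examples, picked for length and for lying outside untranslated regions. Each held 1 read in each of 2 erythrocyte libraries and 0 reads in ESC and DE. Most of the repeated fragments also held 0 reads in ESC and DE, but so did most fragments of the members' windows. Only 2.18% of those held any read in ESC and 4.83% in DE. Whether the repeated fragments are lasting contact sites was not tested. The sequences are from NCBIM37 (mm9), plus strand, 5′ to 3′. The Ank1 fragment, chr8:24166963-24167053, is intronic, 81.7 kb into the gene, and held 0, 1 and 1 reads. The Epor fragment, chr9:21766069-21766318, overlaps a coding exon 1.8 kb from the gene start and held 1, 1 and 0 reads. Capitals mark a match to CCNCNCCC, a form of the sequence bound by Klf-type factors, or to AGATAA, a form of the GATA motif, on either strand. The Epor fragment holds 1 match to CCNCNCCC and the Ank1 fragment holds neither.
Ank1 fragment: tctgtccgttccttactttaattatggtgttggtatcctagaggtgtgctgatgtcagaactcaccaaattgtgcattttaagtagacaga
Epor fragment: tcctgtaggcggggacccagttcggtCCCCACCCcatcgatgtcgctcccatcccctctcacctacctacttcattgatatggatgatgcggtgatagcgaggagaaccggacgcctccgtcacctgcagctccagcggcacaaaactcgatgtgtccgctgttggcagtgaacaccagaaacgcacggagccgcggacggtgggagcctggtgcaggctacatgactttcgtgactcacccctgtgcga

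Promoters of the members were searched for the same letters, since erythroid factors that bind them act on globin genes too. RefSeq promoters (GRCm38.p6, 250 bases before to 50 after the start, both strands) were found for 21 members, 25 promoters in all. AGATAA was present in 6 of the 25 (24.0%), against 11.2% of all 32619 promoters, and CCNCNCCC in 18 (72.0%), against 49.8%. Both were present in 3 (12.0%), against 3.47%, while the exact form CCACACCC was present in 0, against 3.57%. CCNCNCCC overlaps CCACACCC and is common in other lists too, with 93.3% of 15 pluripotency promoters. These matches are descriptions of letters in a window, not binding sites, and other forms of the GATA motif were not searched. The promoters of Kel and Epor are shown as examples with AGATAA alone and with both motifs. They are given in the direction of transcription, with matches on either strand in capitals. The Kel promoter is chr6:41704276-41704575 and the Epor promoter chr9:21963527-21963826, both on the minus strand.
Kel promoter: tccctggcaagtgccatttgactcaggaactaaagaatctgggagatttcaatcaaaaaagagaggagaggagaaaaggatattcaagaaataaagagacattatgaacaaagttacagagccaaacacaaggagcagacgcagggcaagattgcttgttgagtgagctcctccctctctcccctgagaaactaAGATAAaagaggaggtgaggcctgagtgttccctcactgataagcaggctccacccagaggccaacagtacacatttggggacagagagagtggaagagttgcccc
Epor promoter: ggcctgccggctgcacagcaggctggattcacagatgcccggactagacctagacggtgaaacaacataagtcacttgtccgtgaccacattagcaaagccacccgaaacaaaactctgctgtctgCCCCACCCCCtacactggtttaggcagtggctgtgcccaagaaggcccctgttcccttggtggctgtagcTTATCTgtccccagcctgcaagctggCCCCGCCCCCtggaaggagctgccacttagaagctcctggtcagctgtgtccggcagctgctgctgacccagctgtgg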

How the data were processed

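The authors trimmed reads with Trim Galore and mapped them with Bowtie to mm9 per the submitters' processing notes, and deposited a signal for every DpnII fragment in which each column, 1 viewpoint of 1 library, adds up to 100000 interactions. Tool versions, and whether duplicate reads were removed, are not given in the sources read. Whole reads were recovered from the deposited signal within 0.1 of a read. In the Hba promoter column of DE replicate 3 the signal of 1 read, 0.998, could not be set apart from 1. That column was left out of the count tests (edgeR, DESeq2) and of the summed columns in them, but was kept in the ratios and limma fits. Of the columns, 45 were used and 63 of other viewpoints were not. Members and gene lists were chosen with earlier results of these data known.

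Ratios are reads over those expected from the mean trans level per kb. Gene windows were tested with limma 3.58.1 in R 4.3.3 on log2 of the value per 100000 trans interactions plus a pseudocount of 10, with only the cell types compared in a fit, an adjusted p threshold of 0.05 and a minimum of 10 reads. edgeR 4.0.16 and DESeq2 1.42.0 on recovered reads, and fits on changed settings, were alternatives. Fits with fewer than 100 windows were not run. Fits were tested on simulated data. The rest used pandas 2.3.3 and numpy 2.4.6 under Python 3.11.15, with intervals from scipy 1.17.1 and plots from matplotlib 3.10.9. Named with values were members called in any fit, the 6 highest and 4 lowest in erythrocytes, and Klf1. Columns of the same library were paired for Hba against Foxa2 (correlations of deviations 0.03 to 0.10) and for Hbb against Foxa2 (-0.07 to 0.08), as the pairing comes from the library itself.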

Additional observations from a re-analysis of the deposited data

How the results depend on the processing

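The ratio of pooled member enrichment kept its direction for erythrocytes over ESC and over DE under every alternative run. Leaving out each library moved the log2 ratio of means between 0.60 and 1.59 over ESC and between 0.94 and 1.93 over DE, both lowest without erythrocyte replicate 2. As reads above the trans mean per 100000 cis interactions, chosen after seeing the data, they were 3.46 and 3.99. DE over ESC stayed below 0 in the enhancer capture of Hba (-0.21 against the 200 kb flanks, -0.13 in gene bodies). The enrichment of members moved by more than 1 SD in several settings. Against the 200 kb flanks it was 1.23 in ESC and 1.13 in DE summed, 1.20 in DE and 2.14 in erythrocytes in the promoter captures of Hba and Hbb, 1.22 in ESC and 1.06 in DE in the enhancer capture of Hba, and 0.745 in ESC and 1.12 in DE at Foxa2. In gene bodies it was 4.79 in erythrocytes at the Hbb promoter, 1.76 in ESC and 1.61 in DE in the Hba enhancer capture and 0.803 in ESC at Foxa2. Without Ank1, DE gave 1.28 summed, 1.36 in the promoter and 1.18 in the enhancer capture of Hba. With 50 kb flanks, erythrocytes gave 2.63 in the Hbb enhancer capture and 1.66 at Foxa2, and against all gene windows DE gave 1.26 in the Hba enhancer capture.

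Counts of windows called were small and depended on the setting, moving by over 1.5 times in 102 of 247 alternative fits, and the cause was not tested. A member was called in 2 of 261 fits, as given for Ank1 and Tspan33. Tspan33 turned from 0.17 to -0.39 on the log2 scale between erythrocytes and ESC without erythrocyte replicate 2, and lay between -0.39 and 0.58 over all libraries left out. For erythrocytes against ESC, the Hba promoter capture gave 1 window with no minimum count, with a pseudocount of 2 or 50, with 50 kb flanks and with each fragment counted once, the Hbb promoter capture gave 1 with no minimum count, and the Hba enhancer capture gave 0 with edgeR, DESeq2, TMM, DESeq2 size factors, scaling to all interactions, gene bodies, fragments counted once and all 3 cell types in the fit. Against DE, the Hba promoter capture gave 0 with edgeR, DESeq2, TMM, DESeq2 size factors and scaling to all interactions, 4 with a pseudocount of 2, and 1 with a pseudocount of 50, gene bodies or all 3 cell types. The Hbb promoter capture gave 1 with edgeR, scaling to all interactions or no minimum, and the Hba enhancer capture gave 11 with edgeR, 7 with DESeq2, 1 in gene bodies and 0 with TMM, DESeq2 size factors, scaling to all interactions or all 3 cell types. DE against ESC gave 2 with TMM, 4 with DESeq2 size factors and 1 with fragments counted once at the Hba promoter capture, 1 with no minimum in its enhancer capture, and at the Hbb promoter capture 13 with 50 kb flanks and 0 with edgeR, DESeq2, TMM, no minimum or all 3 cell types. Against Foxa2, Hba gave 0 in gene bodies or with fragments counted once and 5 with 50 kb flanks, and Hbb gave 0 with TMM, DESeq2 size factors, a pseudocount of 2, gene bodies or fragments counted once, 4 with scaling to all interactions and 5 with 50 kb flanks.

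With the globin columns summed, a fit added after seeing the data, erythrocytes against ESC gave 7 windows with edgeR, 19 with 50 kb flanks, 17 with all 3 cell types and 0 in the other settings that moved it. Against DE it gave 24 with edgeR, 13 with DESeq2, 2 with DESeq2 size factors, 0 with scaling to all interactions, 1 with a pseudocount of 50, 4 in gene bodies, 26 with 50 kb flanks, 16 with fragments counted once and 12 with all 3 cell types. DE against ESC gave 2 with DESeq2 size factors. Leaving out each library gave 0 to 1 windows for erythrocytes against ESC and 1 to 32 against DE summed, 0 to 1 and 1 to 6 in the Hba promoter capture, 0 to 1 and 1 to 2 in its enhancer capture, 0 to 16 against ESC in the Hbb promoter capture, 0 to 1 and 0 to 185 for DE against ESC in the Hba promoter and enhancer captures, and 2 to 110 for Hba and 1 to 2 for Hbb against Foxa2.

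With the replicate number as a block, erythrocytes against ESC gave 2 windows in the Hba promoter capture and 0 in its enhancer capture, and against DE 1 in the Hba promoter capture. Same-numbered libraries of different cell types did not deviate together (correlations -0.02 to 0.02), so the numbers were not taken as pairs.

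Fits of the Hbb enhancer capture, with 0 to 16 windows at the minimum count, and some alternatives of the Hbb promoter capture were not run for want of windows. Depth limits what single genes can show: in ESC a gene window held 0 reads in 27.2% of all windows and in 12.0% of the members.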

Other observations

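Among the further erythroid genes, Hemgn, a nuclear protein of blood progenitors, held 15, 11 and 5 globin reads in erythrocytes, 0, 4 and 2 in ESC and 0, 2 and 2 in DE, a ratio of 7.94 in erythrocytes. In limma it passed against DE only in some alternatives, with each fragment counted once (log2 difference 1.40, adjusted p = 0.0428) and without erythrocyte replicate 3 (1.77, adjusted p = 0.0189).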
